A study of Lactuca sativa with 24 samples.

Results

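The comparison described here is that of leaves of the lettuce (Lactuca sativa) variety Luna bionda that were given UVB light for 2.5 h per day, against leaves of the same variety kept under visible light. Libraries were assigned by the sample labels, which gave 3 UVB libraries and 3 visible-light control libraries, 6 of the 24 libraries of the series. Both groups are wild-type plants collected at day 6, and the material is described as baby leaves. The UVB group received 0.4 W per m2 of UVB from a light-emitting diode lamp whose warm and cold white diodes give the visible light, and the controls are labelled as day 6 control plants without UV. Other groups of the series serve only to place these 6 libraries. They are Luna bionda at day 0, Luna bionda given the same UVB for 7.5 h per day to day 6, and the variety Falstaff at day 6 with 2.5 h of UVB or with visible light. Falstaff at day 0, and Falstaff given UVA for 7.5 h per day at 0.4 W per m2 to day 6, enter only where genes were chosen from other deep libraries. The labels do not state that replicate libraries are separate plants, and each p-value therefore reflects only how far these libraries scatter, part of which may be technical. Bulk leaf RNA was sequenced, so that a change in the make-up of cells and a change in RNA per cell cannot be told apart.

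UVB is the short-wave end of the ultraviolet light that reaches plants. In Arabidopsis thaliana it is sensed by the photoreceptor UVR8, which binds the ubiquitin ligase COP1 and thereby raises the transcription factor HY5. The pathway is known for switching on flavonoid and other phenolic sunscreen genes and photolyases that repair DNA, while strong UVB also damages DNA and photosystem II. In lettuce leaves, UVB is known for raising flavonoids and, in red varieties, anthocyanins. The reference annotation used here gives lettuce nuclear genes a locus identifier, a biotype and a chromosome but no product name. The genes of this pathway could therefore not be picked out, nuclear genes are named by locus and given no role, and the leaf identity of the libraries was not checked against marker genes. No sequence of these genes was used here.

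The labels and the names of the deposited tables disagreed for the control group and for most groups set beside it. The 3 UVB libraries carry the same name under both. Visible library 1 sits under the name of the 7.5 h UVB group in the tables, and visible libraries 2 and 3 sit under the name of day 0. The day 0 libraries of Luna bionda sit under the name of the day 6 control, the deep Falstaff libraries labelled UVB 2.5 h under that of a second UVB treatment, and the Falstaff visible libraries under that of day 0. The labels were followed, the disagreement was not settled, and every comparison with these libraries, the interaction included, carries it. In addition, each library carries a numeric tag, and the tags of the 3 UVB libraries start with other digits than those of the 3 controls. This series of the tag coincides with the light treatment, so the 2 cannot be told apart within the 6 libraries. What the tag stands for is not stated. Tags of all 6 shallow libraries, those under 5000000 reads, start with the same digits as those of the 3 UVB libraries. Plastid genes took 4.47% to 11.6% of the reads in the shallow libraries and at most 0.00780% in the deep ones. Whether the tag series bears on the differences described below was not tested within the 6 libraries.

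All 6 libraries were deep. The UVB libraries 1, 2 and 3 held 17032268, 16483560 and 29545956 reads in genes, and the visible libraries 1, 2 and 3 held 29653670, 43276819 and 32225060. Of 95 genes that other libraries of the series show in Luna bionda but not in Falstaff, 85 to 95 had reads in each UVB library and all 95 had reads in each visible library. Of 174 genes that other libraries show in Falstaff but not in Luna bionda, 4 or 5 had reads in each UVB library and 6, 44 and 13 in the visible libraries. The first set held at least 5951 reads in each of the 6 libraries and the second at most 143, which fits the labelled variety.

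The UVB libraries did not form 1 group. Across 21863 genes, Spearman's rho was 0.941 between UVB libraries 2 and 3, but 0.810 and 0.840 between UVB library 1 and these 2. UVB library 1 stood closer to the controls, with rho of 0.905, 0.940 and 0.951 to visible libraries 1, 2 and 3. Its rho to UVB 7.5 h library 2 was 0.967. These coefficients describe pairs of libraries across genes, and the genes are not independent. The first principal component held 58.1% of the variance and placed UVB library 2 at 191.7 and UVB library 3 at 111.9, while UVB library 1 at -82.1 lay among the visible libraries at -88.3, -80.2 and -53.0. Across genes, the UVB group therefore holds 2 libraries that stand apart and 1 that does not, although single genes can differ from this. The values of all 3 are given for most genes named below.

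**Figure D1:**
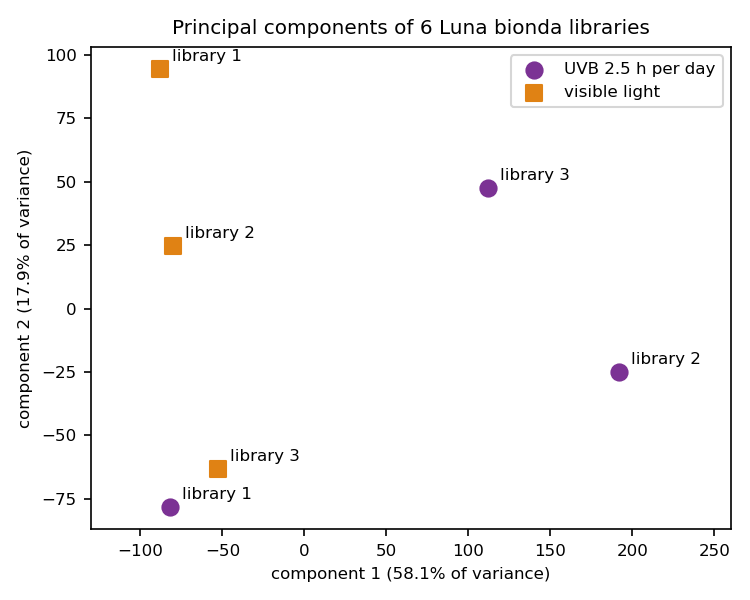
Principal components of the 6 Luna bionda libraries, from log2 levels of the 21863 tested genes. The x axis is component 1 (58.1% of the variance) and the y axis component 2 (17.9%), circles are UVB libraries and squares visible-light libraries. UVB libraries 2 and 3 lie to the right of the other 4, and UVB library 1 lies beside visible library 3.

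Levels below are normalized reads, the whole reads of a gene divided by the library's size factor, and differences are UVB minus visible light on the scale of log2(normalized reads + 1), fitted with limma. At an adjusted p of 0.05 (Benjamini-Hochberg, over all genes), 0 of 21863 genes passed (0.0%), with a smallest adjusted p of 0.401. At an unadjusted p of 0.05, 2724 genes (12.5%) lay under the threshold, 1576 of them higher with UVB (7.21%) and 1148 lower (5.25%). With edgeR's quasi-likelihood test 0 genes passed, and 2794 had an unadjusted p under 0.05. DESeq2 called 727 genes (3.33%), 649 higher and 78 lower, and in 324 of these 727 the groups overlapped. Left without UVB library 1, limma called 2592 genes, 1485 higher and 1107 lower. Of these 2592 genes, 808 kept the 3 UVB libraries clear of the 3 controls on the same side, and in 1073 UVB library 1 lay within the range of the controls. In 2433 of them UVB library 1 was nearer to the mean of the controls than to the mean of UVB libraries 2 and 3. These genes were called from UVB libraries 2 and 3 against the controls, so the place of UVB library 1 follows in part from their choice. Over all 21863 genes the groups did not overlap in 18.2%. The number of calls depended on UVB library 1, with 0 genes in the main fit and 2592 without it. The median standard error of a log2 difference over all genes was 0.503 with all 6.

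Counted without a test, the groups did not overlap in 18.2% of the genes, with all 3 UVB libraries above all 3 controls in 1996 genes (9.13%) and below them in 1991 (9.11%). Of the higher genes, 1015 differed at least 2-fold and 300 at least 4-fold. Of the lower genes, 979 differed at least 2-fold and 230 at least 4-fold. Even in these genes UVB library 1 was the nearest of the 3 to the control mean in 62.7% of the higher and 56.9% of the lower, against 50.9% of all genes tested. The split between higher and lower depended on the scaling. With values scaled to each library's total reads, the median log2 difference of all genes moved from -0.04 to -0.56 over the same 21863 genes, and 711 of them were higher and 4276 lower without overlap. Under an unadjusted p of 0.05, the share of higher genes was 57.9% with size factors and 14.4% in the fit with library totals, in which 21954 genes passed the filter. The genes described next were taken from 3289 without overlap whose mean log2 level was 6 or more, 1687 higher and 1602 lower, in order of the unadjusted p. Because they were chosen for that difference, their values describe it and do not test it again.

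The 12 higher genes with the smallest p had log2 differences of 1.39 to 5.32, or 2.62-fold to 40.0-fold, with unadjusted p of 0.000839 to 0.00183 and an adjusted p of 0.401 each by limma. None passed the main test, while DESeq2 called all 12. The first by p was LOC111914174 on chromosome 7, a protein-coding gene, with 579.6, 1692 and 2467 normalized reads in UVB libraries 1, 2 and 3 and 137, 216 and 232 in visible libraries 1, 2 and 3. All 3 UVB libraries were above the highest control, and UVB library 1 was the lowest of them. Its log2 difference was 2.81 ± 0.55 (SE, n = 3 and 3).

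LOC111886240 on chromosome 4 had the same shape, with 494, 2829 and 2005 normalized reads with UVB and 125, 193 and 168 with visible light, a log2 difference of 3.14 ± 0.62 (SE). LOC111884663 on chromosome 7 held 678, 3851 and 2962 with UVB and 219.7, 321 and 214 with visible light. LOC111918093 on chromosome 6 held 185, 3363 and 2322 with UVB and 32.1, 55.6 and 58.5 with visible light. In these 3 genes UVB libraries 2 and 3 lay far above UVB library 1, which itself lay above every control. LOC111918093 had the widest gap within the UVB group, and its log2 difference was 4.56 ± 0.99 (SE).

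The most abundant of the 12, LOC111892266 on chromosome 4, reached 3505, 14299 and 12672 normalized reads with UVB against 1661, 1125 and 1661 with visible light. LOC111900654 on chromosome 5 held 245, 1302 and 393 against 47.5, 87.7 and 63.3. LOC111904931 on chromosome 6 held 594, 2110.2 and 1293 against 152, 325 and 224. These 3 genes were highest in UVB library 2, and again lowest of the UVB group in library 1.

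Smaller differences were seen in 3 further genes. LOC111888552 on chromosome 7 held 1465, 2192 and 1740.5 normalized reads with UVB and 742, 689 and 604 with visible light, a log2 difference of 1.39 ± 0.30 (SE). LOC111899862 on chromosome 2 held 1204, 2489 and 1912 against 597, 637 and 434. LOC111884184 on chromosome 3 held 995, 1579 and 2756 against 331, 337 and 581. UVB library 1 was the lowest of its group and above every control in each, and in LOC111884184 the UVB libraries spanned a wider range than the controls. The long noncoding RNA LOC111879456 on chromosome 9 was the only 1 of the 12 that is not protein coding. It held 436, 623 and 332 normalized reads with UVB and 72.8, 138 and 143 with visible light, with UVB library 3 the lowest of its group.

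By size of difference, LOC111895648 on chromosome 7 led, with 277, 1866 and 137 normalized reads with UVB and 16.0, 2.04 and 20.6 with visible light, a log2 difference of 5.32 ± 1.10 (SE). LOC111883128 on chromosome 6 followed with 850.3, 37831 and 3997 against 184, 75.5 and 346 (4.89 ± 1.23, SE). LOC111915306 on chromosome 4, annotated as a miscellaneous RNA, held 79.6, 7134 and 2679 against 43.2, 63.8 and 28.5 (4.72 ± 1.43, SE). The spread within the UVB group was wide in all 3. In LOC111915306, UVB library 1 was only a little above the highest control, and most of the difference came from UVB libraries 2 and 3.

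The 12 lower genes with the smallest p had log2 differences of -1.30 to -5.80, unadjusted p of 0.000368 to 0.00257 and an adjusted p of 0.401 each by limma. DESeq2 called these 12 too. LOC111893654 on chromosome 8 came first, with 444, 197 and 322 normalized reads in UVB libraries 1, 2 and 3 and 1719.6, 1170.3 and 1422 in the visible libraries. The highest UVB library was well below the lowest control, and the log2 difference was -2.22 ± 0.38 (SE, n = 3 and 3).

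In several lower genes the 3 UVB libraries lay close together, UVB library 1 included. LOC111902665 on chromosome 7 held 212, 219 and 246 normalized reads with UVB and 757, 664 and 509 with visible light. LOC111899835 on chromosome 2 held 287, 355 and 262 against 871, 763 and 908. LOC111904822 on chromosome 2 held 139, 108 and 126 against 413, 387 and 278. LOC111905484 on chromosome 1, with 309, 261 and 275 against 821, 685 and 593, had the smallest difference of the 12 at -1.30 ± 0.30 (SE). In all 4 of these genes the UVB group varied less than its distance from the controls.

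The other lower genes had UVB library 1 between its own group and the controls. LOC111895243 on chromosome 9 held 486, 103 and 192 normalized reads with UVB and 2498, 2819 and 791 with visible light. LOC111879935 on chromosome 1 held 301, 79.9 and 243 against 644, 944 and 1066. LOC111894585 on chromosome 7 held 755, 249 and 419 against 1657, 2186 and 1258. UVB library 2 was the lowest of the 6 libraries in each. The same was true of LOC122194466 and LOC111899948 on chromosome 8 and of LOC111899612 on chromosome 5, with log2 differences of -2.54, -1.85 and -1.94.

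The largest lower difference was that of LOC111883451 on chromosome 2, which held 328, 23.5 and 39.5 normalized reads with UVB and 9575, 8347 and 705 with visible light (-5.80 ± 1.21, SE). The controls themselves spanned a wide range, with visible library 3 nearest to the UVB group. LOC111882072 on chromosome 2 had 787, 0 and 462 with UVB and 7641, 6547 and 832 with visible light (-5.60 ± 2.30, SE). LOC111914481 on chromosome 3 had 111, 0 and 35.5 against 952, 651 and 218 (-5.00 ± 1.56, SE). Both genes had no read in UVB library 2, and in LOC111882072 UVB library 1 was close to visible library 3. DESeq2 did not call LOC111882072.

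**Figure D2:**
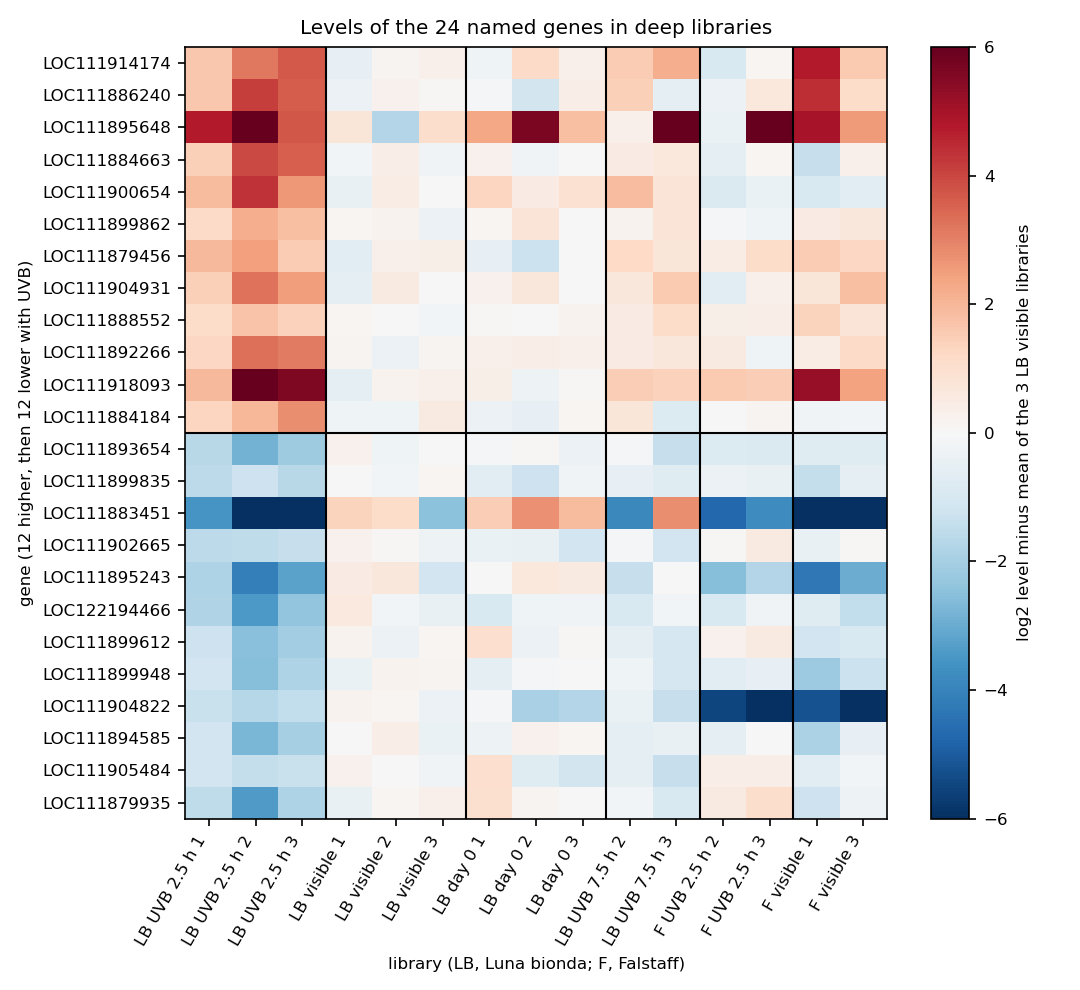
Levels of the 12 higher and 12 lower genes in 15 deep libraries. Rows are genes, columns are libraries of Luna bionda (LB) and Falstaff (F), and the colour is log2(normalized reads + 1) minus the mean of the 3 Luna bionda visible libraries, with colours held at 6 above and below. The first 3 columns show the UVB 2.5 h libraries, and Falstaff visible library 1 shows the UVB side of several genes, as in LOC111914174 and LOC111918093.

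All 24 genes kept their direction under every alternative, and all kept their groups apart when levels were scaled to library totals. They reached an adjusted p of 0.05 by DESeq2 and in the fits without UVB library 1, and in none of the other fits except one with sample weights that had not converged.

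The shares of higher and lower genes varied with expression level. Of 877 genes with a mean log2 level from 12 to 15, 27.7% were higher without overlap and 2.05% lower, with a median log2 difference of 0.62. Of the 67 genes above that level, 13.4% were higher and 0 were lower, with a median of 0.86. Lower levels showed the opposite split, since of 9595 genes with a level from 6 to 9, 576 were higher and 1153 lower, with a median of -0.17. Scaled to library totals, the medians of these 3 classes were 0.09, 0.33 and -0.69. The 100 genes most abundant in the other deep libraries were read as a separate set. Of these, 72 had a log2 difference above 0, with a median of 0.61. Without overlap, 9 were higher and 3 lower, against 9.13% and 9.11% of all genes. The 100 genes took 25.6%, 26.8% and 23.5% of the reads in UVB libraries 1, 2 and 3 and 17.2%, 21.0% and 26.5% in the visible libraries. The groups overlapped in that share (exact two-sided permutation test, p = 0.3, where 3 against 3 allows no less than 0.1), since visible library 3 was as high as the UVB group.

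**Figure D3:**
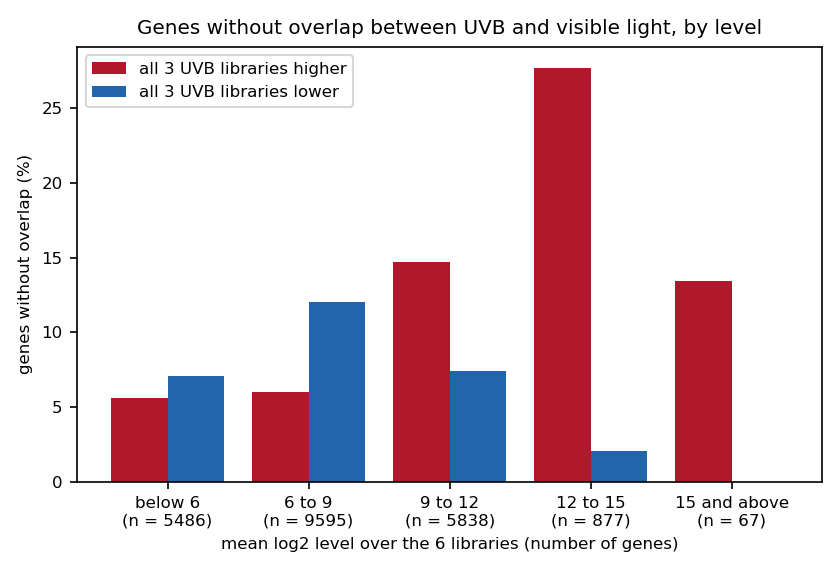
Percentage of genes whose 3 UVB and 3 visible libraries do not overlap, by mean log2 level. The x axis gives classes of mean log2(normalized reads + 1) over the 6 libraries with the number of genes, the y axis the percentage, red bars genes higher with UVB and blue bars genes lower. Higher genes reach 27.7% in the class from 12 to 15, and lower genes outnumber higher genes in the classes below 9.

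Genes of the plastid genome, which encodes core subunits of the photosystems, the cytochrome b6f complex, the ATP synthase and the NDH complex, were measured at low levels. Most plastid transcripts carry no stable poly(A) tail, and the labels give the molecule as polyA RNA. In the tables, 14 plastid genes passed the filter on low values and 95 did not. All 14 had a log2 difference above 0, with a median of 1.85 against -0.04 over all genes tested, 7 were higher without overlap and 0 lower (against 9.13% and 9.11% of all genes), and 0 reached an adjusted p of 0.05 by limma. Since the filter keeps genes that are high in either group, these counts describe the 14 and not the plastid genome. Summed over the list, the normalized reads were 861, 3022 and 1484 in UVB libraries 1, 2 and 3 and 606, 167 and 615 in the visible libraries. The groups did not overlap in this sum, and the exact two-sided permutation test gave p = 0.1, the smallest that 3 libraries against 3 allow. As a share of library totals the sums overlapped, with 0.00318% in UVB library 1 and 0.00331% in visible library 1. The sums rest on 541, 1286 and 1504 reads with UVB and 982, 328 and 778 with visible light. In the deep Falstaff libraries, 3 of the 11 of these genes tested were higher with UVB, with a median log2 difference of -0.41. Plastid genes took 0.00417% and 0.00168% of the reads in Falstaff UVB libraries 2 and 3, and 0.00154% and 0.00542% in Falstaff visible libraries 1 and 3. Falstaff visible library 3, labelled as a control, thus lay above Luna bionda UVB library 1 and also above UVB library 3, at 0.00509%.

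psbA, the gene of the photosystem II reaction-centre protein D1 that strong light and UVB damage, held 350.3, 1513 and 498 normalized reads with UVB and 279, 9.18 and 167 with visible light (3.04 ± 1.18, SE). UVB library 1 was only slightly above visible library 1, and visible library 2 was the lowest. psaC, a subunit of photosystem I, held 119, 515 and 134 against 28.4, 48.0 and 80.7 (2.05 ± 0.68, SE). ndhF, a subunit of the NDH complex of cyclic electron flow, held 12.7, 30.5 and 25.7 against 1.23, 0 and 3.16 (3.43 ± 1.17, SE). Its groups did not overlap, with at most 26 reads in any library. With 2, 0 and 4 reads in the controls, ndhF passed the filter only through its UVB levels. Its separation in this direction therefore follows in part from the filter. In these 3 genes unadjusted p was 0.0323, 0.0160 and 0.0187, and the adjusted p by limma was 0.401 in each. Scaled to library totals all 14 kept a difference above 0, with a median of 1.37, but only 2 stayed free of overlap.

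**Figure D4:**
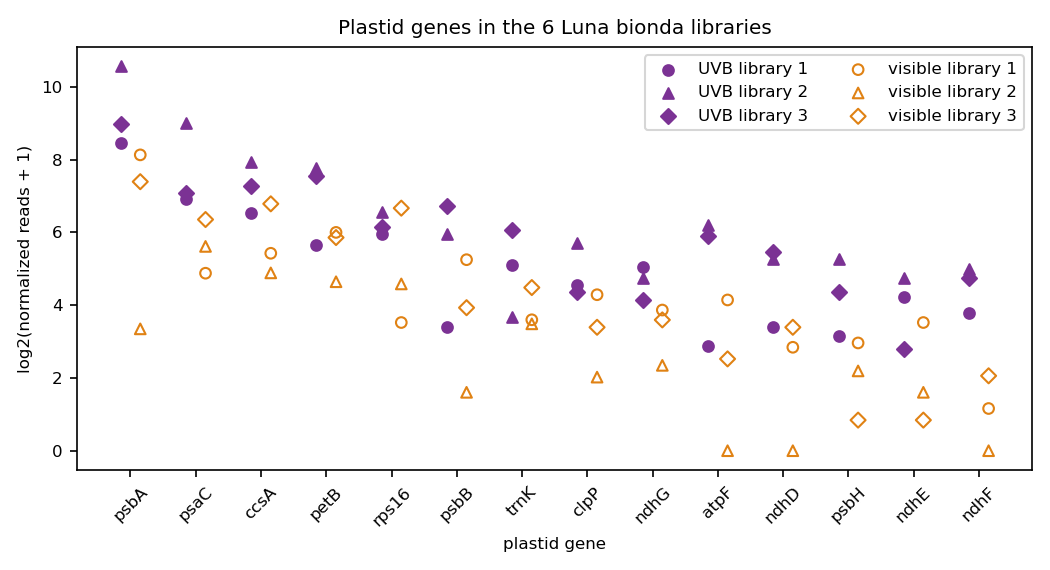
Levels of the 14 plastid genes that passed the filter. The x axis lists genes in order of mean level, the y axis is log2(normalized reads + 1), filled symbols are the 3 UVB libraries and open symbols the 3 visible libraries. The UVB symbols lie above the controls without overlap in 7 genes, among them psbA, psaC and ndhF, and overlap the controls in the other 7.

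Mitochondrial genes showed no such common direction. Of 57 in the tables, 11 were tested, 6 had a difference above 0, and the median was 0.09. Of the 11, 1 was higher without overlap (9.09%, against 9.13% of all genes). That gene was a copy of atp1, a subunit of the mitochondrial ATP synthase, with 89.2, 348 and 78.9 normalized reads with UVB and 46.9, 40.3 and 42.7 with visible light. The other atp1 entry of the tables held 140.1, 228 and 168 against 77.7, 354 and 240.5 with overlap, and because reads may be divided between the 2 entries, both values are uncertain. atp6, another ATP synthase subunit, held 65.3, 113 and 34.5 against 13.6, 4.08 and 80.7, and visible library 3 lay above UVB libraries 1 and 3.

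Long noncoding RNAs were tested in 1816 of 3758 cases. They were higher without overlap in 111 (6.11%) and lower in 65 (3.58%), both below the share over all genes, with a median log2 difference of -0.01. LOC111921165 on chromosome 8 had the smallest p of the list and held 6.37, 9.40 and 13.8 normalized reads with UVB against 294, 284 and 58.5 with visible light (-4.04 ± 0.76, SE). The UVB libraries held only 4, 4 and 14 reads of it, and all controls were above them. LOC111896736 on chromosome 3 went the other way, with 51.0, 174 and 162 against 18.5, 15.8 and 19.0 (2.61 ± 0.63, SE). The most abundant long noncoding RNA, LOC128126721 on chromosome 1, overlapped between the groups. It held 83427, 87392 and 143168 normalized reads with UVB and 43945, 41309.9 and 99614 with visible light.

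Of 128 small nuclear and nucleolar RNAs tested, 3 were higher (2.34%) and 2 lower (1.56%) without overlap, against 9.13% and 9.11% of all genes, and the median was -0.08. The small nucleolar RNA LOC111887838 on chromosome 2 held 63.7, 84.6 and 60.2 normalized reads with UVB against 14.8, 12.8 and 34.0, and LOC111907407 on chromosome 3 held 20.7, 4.70 and 9.87 against 27.8, 95.4 and 37.2. Of 361 transfer and ribosomal RNA genes 11 were tested, and 2 were higher without overlap (18.2%, against 9.13% of all genes), with a median of 0.94. Protein-coding genes made up most of the rest, with 1877 higher and 1923 lower without overlap of 19877. These shares of 9.44% and 9.67% were near the 9.13% and 9.11% of all genes.

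The reference gives a further name to 2 nuclear genes. LOC111889525 carries the name of triosephosphate isomerase (TPI), an enzyme of glycolysis and the Calvin cycle, and held 59309, 44152 and 39309 normalized reads with UVB against 29215, 34333 and 35986 with visible light. The UVB libraries were above the controls, by 0.50 ± 0.51 (SE) on the log2 scale, with an unadjusted p of 0.352 and an adjusted p of 0.633 by limma. LOC111883376 carries the name of cytosolic glutamine synthetase, which takes up ammonium into glutamine, and held 4896, 15373 and 12133 against 5716, 7457 and 7353. UVB library 1 was below every control there, while UVB libraries 2 and 3 were above them. Neither gene passed the test. Scaled to library totals, where the median of all genes is lower as well, the differences were -0.02 for LOC111889525 and -0.01 for LOC111883376.

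Some genes that differed lay next to each other. Among tested genes in chromosome order, 11 runs of at least 3 neighbours differed at least 2-fold in the same direction without overlap. Of these runs 8 were higher and 3 lower, and they held 35 genes. Over all 21863 genes tested, 1015 higher and 979 lower genes met the same 2-fold limit without overlap. How many runs would arise from gene order alone was not tested. These runs were chosen after their values were seen, and whether reads are shared between near-identical copies within a run was not tested. The most abundant run was on chromosome 7 and held LOC111902828, LOC122194910, LOC111902826 and LOC122194445. LOC111902826 had 180063, 310825 and 166259 normalized reads with UVB and 36473, 77761 and 119348 with visible light. With size factors, all 3 UVB libraries were above the controls in each of these 4 genes. Their log2 differences were 1.19 ± 0.68, 1.83 ± 0.53, 1.59 ± 0.81 and 1.28 ± 0.71 (SE), with unadjusted p by limma of 0.118, 0.00839, 0.0833 and 0.110. As a share of library totals, visible library 3 lay above UVB library 3 in LOC111902828 and LOC122194445, so their separation depended on the scaling.

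A run on chromosome 4 held LOC111886856, LOC111886855 and LOC111886796. LOC111886855 had 177, 1962 and 654 normalized reads with UVB and 52.4, 39.8 and 106 with visible light. The log2 differences of the 3 genes were 3.05, 3.31 and 3.09. The run with the largest differences was lower with UVB and held LOC111884415, LOC128125841 and LOC111884384 on chromosome 3. LOC111884415 had 6.37, 0 and 1.97 normalized reads with UVB and 558, 169 and 33.2 with visible light. LOC128125841 had 3.18, 0 and 11.8 against 333, 187 and 57.0. In both genes the controls were highest in visible library 1 and lowest in visible library 3, and their log2 differences were -5.73 and -5.35. LOC111882072, described above, also lies in a run of 3 lower genes on chromosome 2, beside LOC111882085 at -1.19 and LOC111882084 at -2.34.

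The same 24 genes were then read in other libraries, where they were not chosen. Day 0 libraries 1, 2 and 3 of Luna bionda lay within the range of the visible-light controls, or beyond it on the far side from UVB, in 8, 6 and 6 of the 12 higher genes and in 8, 7 and 7 of the 12 lower genes. Over all genes without overlap, these shares were 54.0%, 62.8% and 66.8% of the higher and 51.6%, 60.5% and 65.8% of the lower ones. LOC111918093 held 59.5, 37.4 and 48.7 normalized reads in day 0 libraries 1, 2 and 3, and LOC111893654 held 1309, 1479 and 1103. LOC111895648, the higher gene with the largest fold, held 51.5, 512 and 35.4, so that day 0 library 2 lay above UVB libraries 1 and 3. The next by fold, which are outside the 24, were LOC111883128 with 2495, 208 and 490 and LOC111915306 with 114, 87.4 and 36.6. In both, day 0 library 1 lay above UVB library 1. Day 0 library 2 is the only other deep Luna bionda library whose tag is of the series of the UVB libraries, and it reached the UVB side in 1 of the 12 higher and 1 of the 12 lower genes. Over all genes without overlap, it reached the UVB side in 25.9% of the higher and 27.9% of the lower ones. A fit to 11 deep Luna bionda libraries with the tag series as a term called 0 genes. Its smallest adjusted p by limma was 0.0529, while before adjustment 2214 genes lay under 0.05. In that fit only day 0 library 2 separates tag from light, and the median standard error was 0.862.

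Leaves given the same UVB for 7.5 h per day did not show the pattern in full. UVB 7.5 h library 2 reached the UVB 2.5 h side in 0 of the 12 higher and 1 of the 12 lower genes, and library 3 in 3 and 2. Over all genes without overlap, library 2 reached it in 31.9% of the higher and 33.9% of the lower ones, and library 3 in 39.1% and 45.2%. LOC111914174 lay between the groups in UVB 7.5 h library 2, at 547, and within the UVB 2.5 h range in library 3, at 872. LOC111918093 was at 135 and 123 in these libraries, above every visible control and below UVB library 1. LOC111883451 was at 261 and 26879, so that the 2 libraries of that group lay on opposite sides.

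In Falstaff, which shares no library with the Luna bionda comparison, most of the 24 genes differed in the opposite direction. Between 2 deep UVB 2.5 h and 2 deep visible libraries, 3 of the 12 higher genes were higher with UVB, with a median log2 difference of -0.74. Of the 11 lower genes that could be tested, 1 was lower with UVB, with a median of 0.94. Over all genes tested in both varieties, 10267 of 21138 were higher with UVB in Falstaff. LOC111914174 held 100.3 and 205 normalized reads in the Falstaff UVB libraries and 5171 and 563 in the visible libraries 1 and 3. LOC111918093 held 140.3 and 133 with UVB and 1810.3 and 257 with visible light. Falstaff visible library 1 thus held levels of both genes like those of Luna bionda UVB libraries 2 and 3, and the correlation of these libraries across genes was 0.887 and 0.911. It reached the Luna bionda UVB side in 5 of the 12 higher and 6 of the 12 lower genes, although it had received no UV by its label. Over all genes without overlap its shares were 47.7% of the higher and 53.9% of the lower, so the named genes were near the overall share. Falstaff visible library 3 reached that side in 2 and 4 of the named genes, with overall shares of 42.8% and 50.8%. Falstaff UVB library 2 reached it in 0 and 3, with overall shares of 23.2% and 31.9%, and Falstaff UVB library 3 in 1 and 2, with 16.0% and 23.2%.

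**Figure D5:**
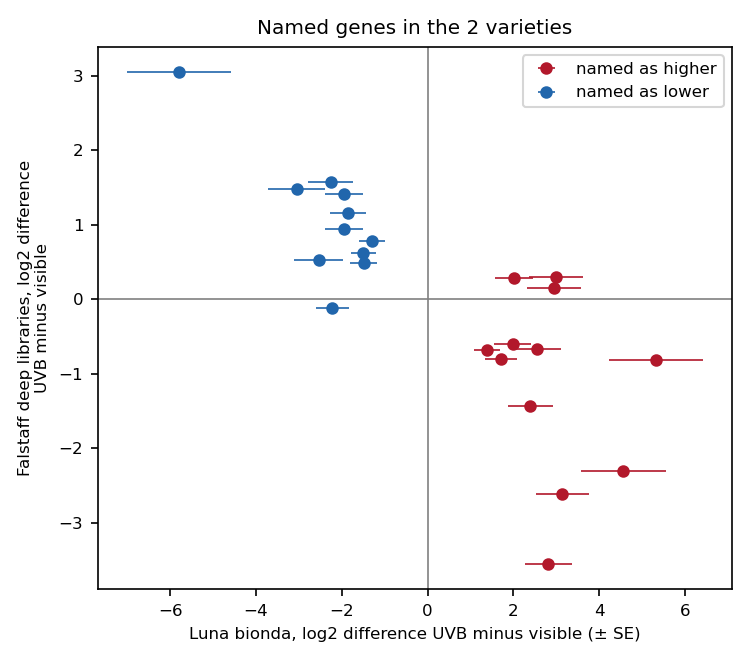
Log2 difference between UVB and visible light in Luna bionda (x axis, ± SE, 3 libraries against 3) and in Falstaff (y axis, 2 deep libraries against 2, drawn without an error) for the 23 named genes tested in both. Red points were named as higher in Luna bionda and blue points as lower. In Falstaff 3 red points lie above 0 and 1 blue point lies below 0.

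The difference between the varieties was tested as an interaction over the 3 and 3 Luna bionda and the 2 and 2 deep Falstaff libraries. At an adjusted p of 0.05 by limma, 0 of 22575 genes passed (0.0%), and no adjusted p was below 0.273. Before adjustment, 3493 genes (15.5%) lay under 0.05. With edgeR 0 genes passed and 3701 had an unadjusted p under 0.05. Without Luna bionda UVB library 1, limma called 1833 genes. All 12 higher and 11 of the 12 lower genes had an unadjusted p under 0.05 for this difference, which is not independent of their choice, since the Luna bionda libraries enter both. The exception was LOC111904822, which was near 0 in Falstaff under both lights, with 6.84 and 0 normalized reads with UVB and 8.48 and 3.94 with visible light.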

How the data were processed

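Leaf RNA libraries of lettuce were prepared from amplified cDNA with Nextera XT and sequenced on a NovaSeq, per the labels' protocols. Reads were aligned with STAR and counted with featureCounts 1.6.3, per the submitters' processing notes. Build, annotation and use of strand: not given in the sources used here. Normalized signal per gene was deposited by the authors in 7 tables. The values were whole multiples of a step in each library, so that 100% came out as whole reads at a relative tolerance of 0.001, and the tables were joined to 31499 genes. Tables of fold changes by the authors were not used.

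From the recovered reads, median-of-ratios size factors of the 6 libraries were computed. Genes with a mean of at least 10 normalized reads were tested on log2(normalized reads + 1) with limma 3.58.1 in R 4.3.3, with intensity trend and Benjamini-Hochberg adjustment. This test was kept as planned because the deposited values are normalized. The count tests edgeR 4.0.16 (quasi-likelihood) and DESeq2 1.42.0 were run on the recovered reads as alternatives. Other alternatives were trimmed-mean and library-total scaling, other pseudocounts, no filter, a replicate block, more Luna bionda libraries, a tag term, sample weights and leaving out each library. With recovered reads as input, edgeR called 0 genes and DESeq2 727. Scripts were tested on simulated data. Genes were named by a rule: 12 per direction by unadjusted p among genes without overlap whose mean log2 level was 6 or more, 3 per direction by fold, and for each list 3 by p and 1 by level. Of 25 gene lists, 20 need product names and could not be filled, and 5 were filled by chromosome or biotype. A search for promoter motifs was not run. Of the genes, 31046 matched the RefSeq table of assembly Lsat_Salinas_v11 and 453 did not. The comparison, the members and the lists were chosen with earlier results of these data known. The labels do not state that replicate numbers pair the libraries, so the main fit has no block. The libraries are 18 deep and 6 shallow in the series, and shallow ones are those under 5000000 reads. Depth from 16483560 to 43276819 reads in genes limits the low genes. Each SE is limma's moderated error, in which a gene's own spread between libraries is drawn toward a trend over all genes.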

Additional observations from a re-analysis of the deposited data

How the results depend on the processing

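The count of genes past an adjusted p of 0.05 between UVB 2.5 h and visible light was 0 with size factors, trimmed-mean and library-total scaling, pseudocounts of 0.5 and 5, no filter, edgeR, the fits to 11 and 12 Luna bionda libraries and the tag term. It was 727 with DESeq2, whose adjusted p was not given for 92 genes. It was 6400 with sample weights, a fit that stopped before convergence and gave visible library 2 a weight of 21.3 and UVB library 1 a weight of 0.222. With 1 library left out in turn it ran from 0 to 2592, and only the fit without UVB library 1 was above 0. Fits without that library that were added after seeing the data called 2224 genes with edgeR and 4610 with DESeq2. Genes under an unadjusted p of 0.05 numbered 965 to 6672 when 1 library was left out, 965 without visible library 2, 981 without UVB library 2, 1151 without visible library 1, 1777 without UVB library 3, 2699 without visible library 3 and 6672 without UVB library 1. The interaction count was 0 in all fits except that without Luna bionda UVB library 1, and ran from 0 to 1833. With the 6 shallow libraries of the series in view, the fit that includes those of Falstaff left 1560 genes with an unadjusted p under 0.05 where the deep libraries gave 3493. The cause of these changes was not tested.

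The replicate block called 0 genes and left 2655 with an unadjusted p under 0.05. For the interaction these numbers were 0 and 4211. Deviations of same-numbered libraries from their group mean correlated at -0.0228, 0.0223 and -0.0984, and those of unlike numbers at -0.111 to 0.178. With 3 libraries per group these values cannot settle whether libraries were paired, and the labels state no pairing.

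Most limits come from the spread within the UVB group, from the tag series that coincides with the light, and from control libraries that the deposited tables name differently. With 3 against 3, a single value cannot go below p = 0.1 in an exact permutation test.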
